A study of Homo sapiens with 48 samples.

Results

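GS-5759 is a bifunctional molecule that stimulates the β2-adrenoceptor and inhibits phosphodiesterase 4 (PDE4). Its transcript response after 1 h was measured in BEAS-2B, an immortalised human bronchial epithelial cell line, by setting 4 arrays of cells given 10 nM GS-5759 for 1 h against 4 arrays of cells given vehicle for 1 h. These 8 arrays, chosen by their titles and matched by the replicate number given there, belong to a study of 48 arrays. The other arrays hold cells given GS-5759 or vehicle for 2, 6 or 18 h, and cells given indacaterol, a long-acting β2-adrenoceptor agonist, together with the PDE4 inhibitor GSK256066 (Ind/GSK, each at 10 nM) at all 4 times. All cells were confluent, had spent 3 days in supplemented keratinocyte serum-free medium and then 24 h in that medium without supplements, and were of a single line. No label states that the 4 replicates came from separate cultures; if they did not, the spread behind the p-values is technical.

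The β2-adrenoceptor couples to the stimulatory G protein Gs, which activates adenylyl cyclase and so raises cyclic AMP (cAMP), and PDE4 enzymes break cAMP down. Cyclic AMP frees the catalytic subunits of protein kinase A, which phosphorylate the transcription factor CREB, while the CRTC coactivators of CREB move to the nucleus when the salt-inducible kinases (SIK) that hold them back are inhibited. CREB binds the palindrome TGACGTCA or its TGACG core in the promoters of rapidly induced genes, among them NR4A orphan nuclear receptors and several inhibitors of kinase signalling. In airway epithelium the pathway is the target of inhaled bronchodilators and of PDE4 inhibitors used against airway inflammation.

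Values below are the deposited probe set intensities, called signals here, in the order of replicates 1 to 4. Differences are between group means of log2(signal + 16), GS-5759 minus vehicle, with their standard error (SE) and n = 4 arrays in each group, so folds of low signals are understated. A probe set is called risen or fallen where its limma p-value, adjusted over all 41091 probe sets with exactly 1 gene symbol, was under 0.05. A paired fit, which adds the replicate number as a block, is named where it changes a call, because same-numbered arrays deviated together. Signals of different probe sets are not set against each other, and a change in signal cannot tell fewer responding cells from less RNA in each cell.

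The arrays of replicate 3 stood apart from the other 6 in both groups. The summed signal of 17 keratin and basal epithelial markers was 22460 to 25630 on the other 6 arrays but 279500 on vehicle replicate 3 and 417400 on GS-5759 replicate 3, and 15 of the 17 were highest on these 2 arrays. KRT14, a basal cell keratin, read 15.5, 30.0, 186879 and 25.4 with vehicle and 24.9, 13.3, 323518 and 22.8 with GS-5759. No marker of this list was called, and the part of this difference in the results was not tested beyond the refits without replicate 3 given below. KRT8, a simple epithelial keratin, ran from 4802 to 6942 and VIM, the mesenchymal filament vimentin, averaged 11390 ± 302 (SD) with vehicle. Of 15 ciliated, club and goblet cell markers 5 had a vehicle mean above 101, the signal at the 40th percentile of all probe sets, as did 4 of 12 leukocyte and 1 of 10 endothelial markers. Array medians after the log transform ran from 7.07 to 7.16 and correlations between the 8 arrays from 0.977 to 0.995.

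GS-5759 raised a small set of genes within 1 h and lowered almost none by much. Risen probe sets numbered 70 (0.17% of those tested), for 45 genes, and fallen ones 8 (0.0195%), for 8 genes. The median difference of the 45 risen genes was 1.02, against -0.01 over all probe sets, and 23 of them rose at least 2-fold, while no fallen gene reached 2-fold. For 44 of the 45 and for 7 of the 8 the GS-5759 arrays did not overlap the vehicle arrays. These genes were called on the same arrays, which favours such separation, and its share over all probe sets is not given here. Over all probe sets 2128 (5.18%) had an unadjusted p under 0.05.

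The calls lean on the spread estimated over all 48 arrays. Fitted on the 8 arrays at 1 h alone, 24 probe sets were called risen by limma and none fallen (911 were lower at an unadjusted p under 0.05), and 15 of the 45 risen genes and none of the 8 fallen were called. The 15 included IL6, PRDM1, SIK1, SGK1, TRIB1, RGS2, EDN1 and DUSP1. Among the large rises, NR4A2 (adjusted p 0.124), NR4A3 (0.0806), CXCL2 (0.164), CCL20 (0.389), NR4A1 (0.143), LINC00473 (0.269), ZNF331 (0.124) and BHLHE40 (0.307) were not. With the replicate block on these 8 arrays 29 of the 45 were called, NR4A2 (0.0296) and NR4A3 (0.0468) among them but not CCL20 (0.0673), NR4A1 (0.0693) or ZNF331 (0.0667).

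Replicates differed in the size of the response. The median difference of the 45 risen genes was 1.08 in replicate 1, 0.93 in replicate 2, 1.27 in replicate 3 and 0.84 in replicate 4. Replicate 3 gave the largest difference for 23 of the 45 genes, and replicate 4 the smallest for 29. With replicate 3 left out of every group, 35 of the 45 risen genes were still called, all 45 lay above 0 with no overlap, and their median was 0.94. The 45 had been chosen with these same arrays, so this is no separate evidence. The 10 lost were ITPRIP (adjusted p 0.0546), AVPI1 (0.459), EFNA1 (0.0748), FOSL2 (0.0929), TENT5A (0.0748), TBX3 (0.123), NPC1 (0.0782), KLF1 (0.123), AKAP13 (0.41) and KALRN (0.0748). In the paired fit without replicate 3 all but AKAP13 of the 45 were called (44).

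All 3 NR4A nuclear receptors, which bind DNA without a known classical ligand and are rapidly induced by cAMP, rose, NR4A2 and NR4A3 by more than any other called gene. NR4A2 read 126, 103, 187 and 93.9 with vehicle and 4984, 1340.1, 7136 and 758 with GS-5759, a rise of 4.15 ± 0.73 (17.8-fold, adjusted p = 0.00131). Its GS-5759 arrays fell into a higher pair, replicates 1 and 3, and a lower pair, replicates 2 and 4, and the lowest of them lay well above every vehicle array. NR4A3 went from 63.9, 65.3, 24.0 and 31.1 to 1912, 563, 1558 and 307, a rise of 3.87 ± 0.57 (14.7-fold, adjusted p = 6.92e-05), again with replicates 1 and 3 highest. NR4A1 rose by 1.93 ± 0.33 (adjusted p = 0.000741), from 288, 257, 244 and 247 to 1431, 826, 1712 and 547. The vehicle arrays of NR4A1 lay close together, and the spread was among the treated arrays.

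Genes listed as known targets of cAMP and CREB held the most calls of the 24 gene lists examined. By the brightest probe set of each gene, 11 of the 35 measured (of 37 listed) were called risen and none fallen, with a median difference of 0.65 against -0.01 over all 19775 genes, of which 38 (0.192%) were called risen and 2 (0.0101%) fallen. With the replicate block 21 of the 35 were called, against 0.698% risen and 0.167% fallen over all genes. Without replicate 3 the counts were 13, and 21 with the block. The 11 were NR4A1, NR4A2, NR4A3, SIK1, TRIB1, RGS2, LINC00473, MAFF, DUSP1, FOSL2 and IRS2. All 24 lists were chosen with results of these arrays known. Their counts, here and below, describe the arrays and are no independent evidence, and the shares over all genes apply to each. The lists share members, so the same call can be counted in several of them, as for RGS2, TRIB1, DUSP1 and SIK1.

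Among these, LINC00473 is a non-coding transcript that cAMP and CREB are known to induce. It read 216, 191, 95.7 and 184 with vehicle and 812, 729, 318 and 518 with GS-5759, a rise of 1.67 ± 0.30 (3.18-fold, adjusted p = 0.00206). Replicate 3 was the lowest array in both groups for this RNA, unlike NR4A2 and IL6. MAFF, a small MAF factor that pairs with other basic leucine zipper proteins, read 2052, 2073, 2325 and 2288 with vehicle and 5401, 4462, 6705 and 3831 with GS-5759, and rose by 1.19 ± 0.26 (adjusted p = 0.0229). The groups of MAFF did not overlap, but its call held in only 2 of the 8 fits that left out 1 array, and was lost (adjusted p up to 0.2) without GS-5759 replicate 1 or 3 or any vehicle array. With replicate 3 left out of every group it was 3.58e-05.

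The promoters of the risen genes were searched for the CREB palindrome TGACGTCA and its core, TGACG on the given strand or CGTCA for the other strand, in RefSeq windows of GRCh38.p14 from 250 bases before to 50 after each gene's start. Of the 45 risen genes 39 had a window. The palindrome, which itself contains both cores, was in 3 of them (7.69%), MAFF, AVPI1 and DUSP1, against 2.67% of the 15382 genes on the array with a window and 1.98% of all 27305 windows. A core was in 15 (38.5%), against 29.7% of the array's genes, and at least 3 cores were in 3 (7.69%, against 2.03% of the array's genes): NR4A3, DUSP1 and SIK1. The windows of PRDM1, SGK1, NR4A1, EDN1, CCL20 and BHLHE40 held neither string, which says only that these letters are not in that stretch. Of the fallen genes 5 had a window, none with the palindrome and 1 with a core. Of the genes called only in the paired fit, described further on, 8 of 110 risen windows (7.27%) and 1 of 47 fallen windows (2.13%) held the palindrome, and 46 (41.8%) and 20 (42.6%) a core. A match is a string of letters, not a measured site.

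The 3 windows with the palindrome, and 3 of strongly raised genes with several cores, are printed 5′ to 3′ on the gene's strand so that the spacing can be seen. Capitals mark TGACGTCA and every other TGACG or CGTCA. They lie at chr22:38201744-38202043 (plus strand) for MAFF, chr10:97687192-97687491 (minus) for AVPI1, chr5:172771146-172771445 (minus) for DUSP1, chr9:99821635-99821934 (plus) for NR4A3, chr7:22726950-22727249 (plus) for IL6 and chr21:43427082-43427381 (minus) for SIK1. The palindrome began 54 bases before the start of MAFF, 242 before AVPI1 and 125 before DUSP1.
MAFF: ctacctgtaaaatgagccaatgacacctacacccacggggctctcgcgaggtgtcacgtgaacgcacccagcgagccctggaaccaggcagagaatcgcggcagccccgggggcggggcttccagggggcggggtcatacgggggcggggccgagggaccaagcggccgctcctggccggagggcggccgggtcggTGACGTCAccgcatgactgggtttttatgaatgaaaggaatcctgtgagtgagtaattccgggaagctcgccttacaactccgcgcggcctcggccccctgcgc
AVPI1: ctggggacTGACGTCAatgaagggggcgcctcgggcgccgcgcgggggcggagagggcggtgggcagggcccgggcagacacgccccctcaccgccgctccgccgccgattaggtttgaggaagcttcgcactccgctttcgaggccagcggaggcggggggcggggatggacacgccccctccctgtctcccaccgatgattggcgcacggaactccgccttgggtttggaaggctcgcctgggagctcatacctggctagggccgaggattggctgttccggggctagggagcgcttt
DUSP1: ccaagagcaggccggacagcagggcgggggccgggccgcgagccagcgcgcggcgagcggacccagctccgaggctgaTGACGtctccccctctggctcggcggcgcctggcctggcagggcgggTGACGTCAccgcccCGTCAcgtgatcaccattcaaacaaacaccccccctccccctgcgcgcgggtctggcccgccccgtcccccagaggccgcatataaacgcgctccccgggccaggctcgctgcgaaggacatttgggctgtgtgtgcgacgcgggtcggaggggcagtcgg
NR4A3: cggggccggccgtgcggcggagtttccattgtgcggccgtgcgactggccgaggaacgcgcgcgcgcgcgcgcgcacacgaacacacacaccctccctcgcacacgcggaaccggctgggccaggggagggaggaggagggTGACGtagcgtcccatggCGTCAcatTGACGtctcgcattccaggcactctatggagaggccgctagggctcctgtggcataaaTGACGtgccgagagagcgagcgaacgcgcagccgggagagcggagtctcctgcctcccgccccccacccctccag
IL6: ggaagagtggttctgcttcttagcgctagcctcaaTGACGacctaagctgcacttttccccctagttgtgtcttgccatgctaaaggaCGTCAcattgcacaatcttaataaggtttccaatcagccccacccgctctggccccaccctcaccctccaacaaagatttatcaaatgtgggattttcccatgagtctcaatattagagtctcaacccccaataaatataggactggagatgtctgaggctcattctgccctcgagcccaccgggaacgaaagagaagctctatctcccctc
SIK1: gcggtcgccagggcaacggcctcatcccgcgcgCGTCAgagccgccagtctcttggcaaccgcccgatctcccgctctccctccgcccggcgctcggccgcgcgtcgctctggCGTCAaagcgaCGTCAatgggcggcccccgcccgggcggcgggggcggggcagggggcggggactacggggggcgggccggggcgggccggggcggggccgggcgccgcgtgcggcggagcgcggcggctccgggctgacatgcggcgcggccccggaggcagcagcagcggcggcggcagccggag

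The 4 cores of NR4A3 lay within 109 bases before its start, those of SIK1 at 126, 137 and 217 bases before, and those of IL6 at 162 and 215 bases before. NR4A3, IL6 and SIK1 thus carried cores without the full palindrome in these windows.

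**Figure D1:**
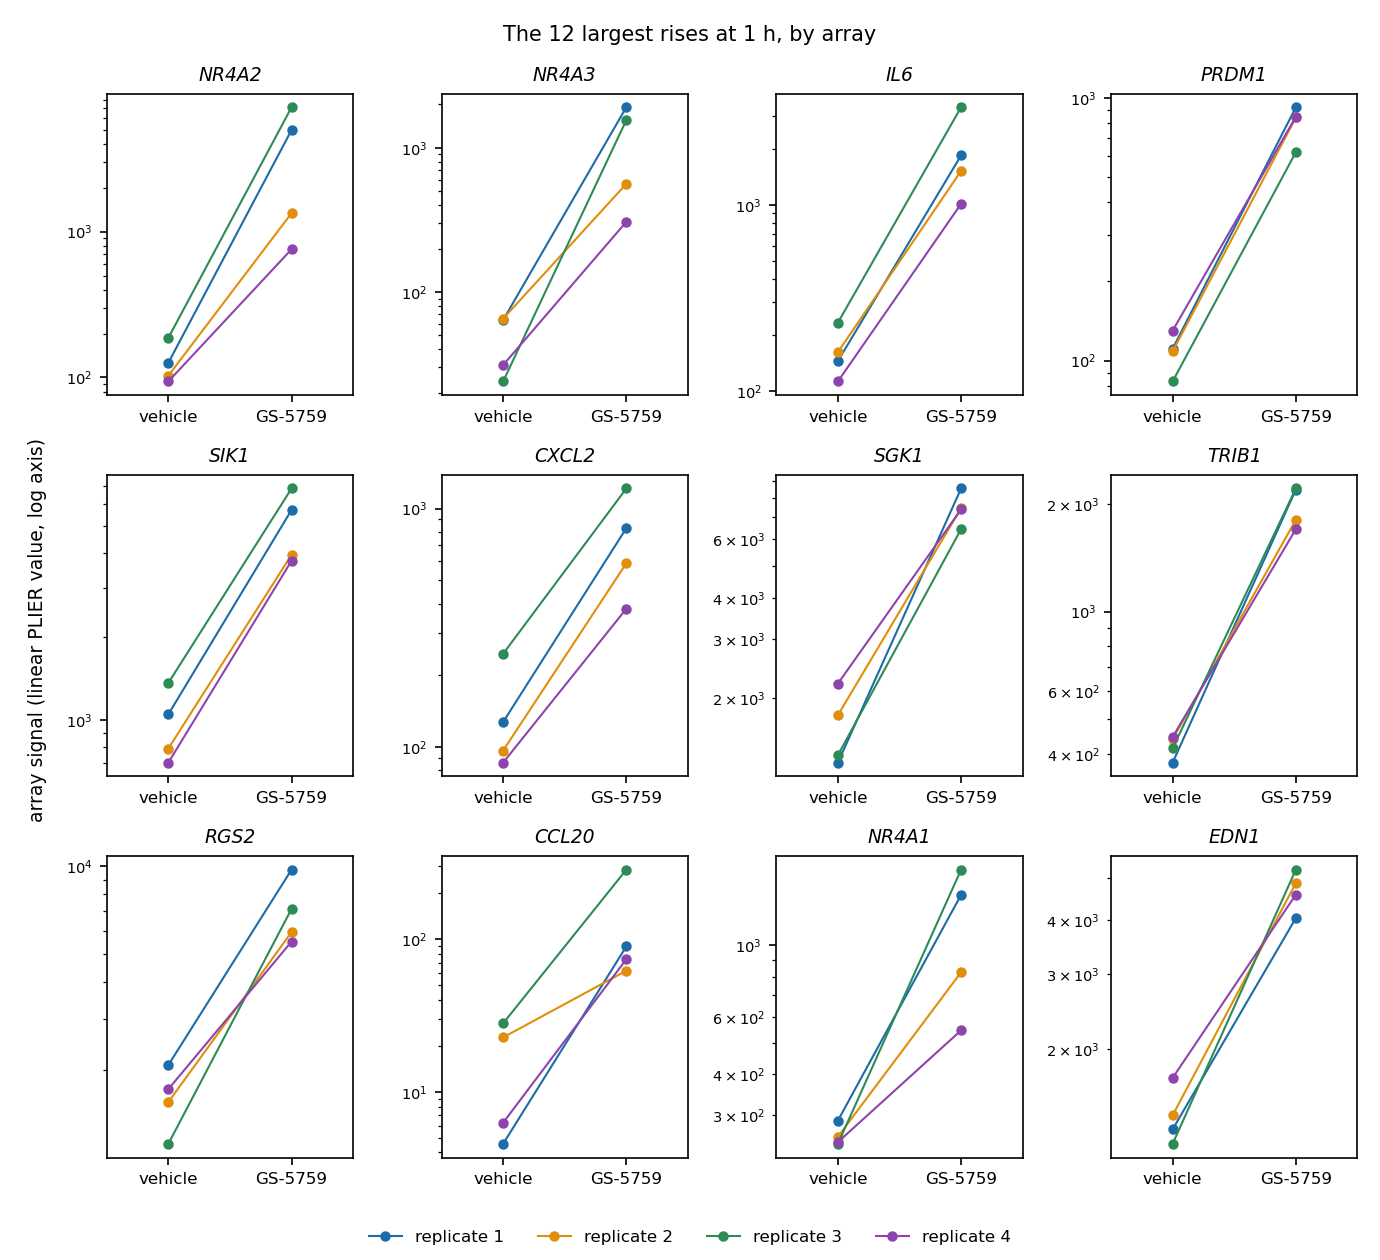
Array signals of the 12 largest rises, on a log axis, with 1 line for each replicate number from its vehicle array to its GS-5759 array. All 4 lines rise in every panel, the NR4A2 arrays run from 758 to 7136 with GS-5759 against 93.9 to 187 with vehicle, and replicate 3 (green) is highest with GS-5759 for NR4A2, IL6, SIK1, CXCL2, TRIB1, CCL20, NR4A1 and EDN1.

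Kinases and a pseudokinase also rose. SIK1, the salt-inducible kinase that is itself a CREB target and restrains CRTC coactivators, read 1052, 792, 1364 and 705 with vehicle and 5732, 3952, 6850.0 and 3761 with GS-5759, a rise of 2.36 ± 0.38 (5.12-fold, adjusted p = 0.000385). Its relatives SIK2 (0.02 ± 0.20) and SIK3 (-0.02 ± 0.30) were not called. SGK1, a serum- and glucocorticoid-regulated kinase that controls epithelial sodium transport, went from 1278, 1775, 1346 and 2209.9 to 8546, 7453, 6446 and 7392, a rise of 2.19 ± 0.21 (4.57-fold, adjusted p = 7.34e-09). TRIB1, a pseudokinase that directs proteins to degradation, went from 378, 439.8, 415 and 446 to 2194, 1807, 2209.6 and 1699.9, a rise of 2.19 ± 0.17 (adjusted p = 3.67e-11). The 4 TRIB1 arrays of each group lay close together, and its adjusted p was the smallest of the genes named here. MAP3K8, a kinase upstream of ERK, rose by 1.17 ± 0.15, from 282, 274, 354 and 273 to 699, 727, 738 and 569 (adjusted p = 1.28e-05).

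Of the cytokines, chemokines and adhesion molecules 3 of the 27 measured rose, against 0.192% of all genes, with a list median of 0.16. IL6, a pleiotropic cytokine, read 145, 161, 233 and 113 with vehicle and 1842, 1520.4, 3339.8 and 1012 with GS-5759, a rise of 3.35 ± 0.48 (10.2-fold, adjusted p = 4.89e-05). Replicate 3 was highest and replicate 4 lowest in both groups. CXCL2, a neutrophil attractant, went from 128, 96.9, 246 and 86.3 to 827, 590.0, 1214 and 381, a rise of 2.29 ± 0.40 (adjusted p = 0.00157), again with replicate 3 highest and replicate 4 lowest in both groups. This was on its brightest probe set, 209774_x_at. The dimmer CXCL2 probe sets 230101_at (0.15 ± 0.15) and 1569203_at (0.12 ± 0.09) were not called in either fit. CCL20, which attracts dendritic cells and T cells, was dim, at 4.56, 22.7, 28.0 and 6.27 with vehicle and 89.5, 62.1, 285 and 73.7 with GS-5759, a rise of 2.04 ± 0.36 (adjusted p = 0.0013) whose size depends on the 16 added before the log. With 1 or 64 added instead, and in the other refits, the CCL20 difference ran from 1.15 to 3.02. In the paired fit CXCL3, another neutrophil attractant (0.66), and CSF1, a macrophage growth factor (0.49), were also called, giving 5 of 27, or 4 without replicate 3.

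Of 20 repressors and helix-loop-helix factors measured, PRDM1 and BHLHE40 were called, against 0.192% of all genes called risen (0.698% with the replicate block). PRDM1, the zinc finger repressor also called BLIMP1, read 111, 108, 83.3 and 130.0 with vehicle and 920.2, 841, 621 and 846 with GS-5759, a rise of 2.73 ± 0.26 (6.62-fold, adjusted p = 6.99e-09). Unlike IL6, its replicate 3 was the lowest array of both groups, and the call does not rest on it (adjusted p = 1.95e-12 without replicate 3). BHLHE40, a helix-loop-helix repressor that also feeds into the circadian clock, went from 1267, 837, 2016 and 1178 to 4389.5, 2946, 6475 and 2717, a rise of 1.61 ± 0.27 (adjusted p = 0.000518). The median difference of the 20 was 0.34. With the replicate block 9 of 20 were called, or 8 without replicate 3, adding SNAI2, HES1, ID1, ID3, NFIL3, BCL6 and SERTAD2. TGIF1, a corepressor of TGF-beta signalling outside that list, rose by 1.20 ± 0.16 from 1956, 1863, 1979 and 1758 to 5177, 3821, 5442 and 3368 (adjusted p = 1.81e-05). ZNF331, a zinc finger protein, rose by 1.65 ± 0.26, from 1072, 924, 718 and 932 to 4488, 2373, 3472 and 1835 (adjusted p = 0.000309).

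Immediate early factors rose in part. Of 31 measured, 7 were called (NR4A1, NR4A2, NR4A3, MAFF, MYC, KLF6 and FOSL2) and 11 with the replicate block, against 0.192% and 0.698% of all genes called risen. The median was 0.34. Of these calls NR4A1, NR4A2, NR4A3, MAFF and FOSL2 were also counted among the cAMP and CREB targets above. Without replicate 3 the counts were 6 and 11. MYC, the proliferation factor, went from 3019, 2741, 4594 and 2775 to 5521, 5229.8, 7510.2 and 5328 (0.86 ± 0.14, adjusted p = 0.000577), and KLF6, a Krüppel-like factor, from 2952, 3066, 4059 and 3277 to 5692, 5512, 6836 and 4959 (0.78 ± 0.11, adjusted p = 2.07e-05). For both genes replicate 3 was highest in both groups. FOS, the AP-1 subunit, read 287, 232, 340.1 and 146 with vehicle and 671, 368, 2083 and 263 with GS-5759, a difference of 1.29 ± 0.59 that was not called (adjusted p = 0.914) but was in the paired fit (0.00422). Its groups overlapped, and GS-5759 replicate 3 was far above the other arrays. EGR1, the zinc finger factor induced by growth factors, read 4272, 5012, 4888 and 4767 with vehicle and 2847, 3754, 3999.7 and 2765 with GS-5759, a difference of -0.52 ± 0.19 (adjusted p = 0.653, 0.213 paired). All 4 treated EGR1 arrays lay below all 4 vehicle arrays, and its dimmer probe set 201693_s_at, at -0.73, fell in the paired fit (adjusted p = 0.00107; 0.0549 unpaired, 0.0354 unpaired without replicate 3).

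Some inhibitors of MAP kinase signalling rose as well. Of 20 MAP kinase phosphatases, Sprouty and SPRED proteins and related inhibitors measured, 4 were called (TRIB1, SPRY2, DUSP4 and DUSP1) and 6 in the paired fit, with a median of 0.13 and the same counts without replicate 3. Over all genes 0.192% were called risen, and 0.698% in the paired fit. DUSP1, a phosphatase that inactivates p38, JNK and ERK, went from 9179, 8281, 9005 and 8089 to 14357, 13747, 14560.0 and 13338, a rise of 0.70 ± 0.10 (adjusted p = 4.5e-05). Another DUSP1 probe set, 201044_x_at, rose by 1.86 ± 0.17 (adjusted p = 3.27e-09), while the third, 226578_s_at, differed by 0.43 ± 0.12 (adjusted p = 0.252), so the size of the DUSP1 response depends on the probe set. DUSP4 rose by 0.74 ± 0.12, from 1967, 2156, 2290.2 and 2420.4 to 3693, 3692, 4090.1 and 3345 (adjusted p = 0.000577). SPRY2, a feedback inhibitor of receptor tyrosine kinases, rose by 1.12 ± 0.22, from 1158, 1281, 1817 and 1162 to 2528, 2659.9, 4141 and 2567 (adjusted p = 0.00817), with replicate 3 highest in both groups. Its call was lost without GS-5759 replicate 3 or vehicle replicate 1 (adjusted p up to 0.108) and was 4.2e-06 with replicate 3 left out of every group. DUSP5, the nuclear ERK phosphatase (1.03 ± 0.35, adjusted p = 0.555), and ERRFI1, an inhibitor of the EGF receptor (0.71), were called only in the paired fit.

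RGS2, which speeds the shut-off of Gq signalling and is known as a bronchoprotective gene, read 2081, 1554, 1117 and 1720.1 with vehicle and 9735, 5948, 7141 and 5518 with GS-5759. Its rise was 2.12 ± 0.28 (4.34-fold, adjusted p = 1.28e-05), and replicate 1 was the highest array of both groups. RND3, an atypical small G protein that opposes actin contraction, rose by 0.55 ± 0.10 (adjusted p = 0.00263), and these were the 2 called of 22 RGS and small G protein regulators (median 0.07). Of 25 measured genes known to be induced by glucocorticoids or to protect the airway, 3 were called (SGK1, RGS2 and DUSP1), with a median of 0.31. For both lists the share called risen over all genes was 0.192%, and 0.698% in the paired fit. The paired fit called 7, adding PDK4, CD200, CEBPD and CEBPB. Without replicate 3 the counts were 5, and 8 with the block. CRISPLD2, a secreted protein of this list, read 377, 203, 153 and 261 with vehicle and 644, 332, 240.3 and 269.6 with GS-5759 (0.52 ± 0.39, adjusted p = 1.00, 0.182 paired), and was not called at 1 h.

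Among 25 growth factor and vasoactive ligands, EDN1 alone was called (list median 0.10), against 0.192% of all genes called risen. EDN1, the precursor of the constrictor peptide endothelin-1, went from 1304, 1406, 1206 and 1718 to 4044, 4878, 5243 and 4588, a rise of 1.73 ± 0.17 (3.32-fold, adjusted p = 1.12e-08). The paired fit called 4, with or without replicate 3, adding BMP2, EDN2 (0.87) and VEGFA (0.56). EFNA1, a membrane-bound ephrin ligand outside that list, rose by 0.91 ± 0.21 (adjusted p = 0.0398), from 1158, 839, 1055 and 770.1 to 2085, 1710.0, 2055 and 1392. Its call held in 2 of the 8 fits without 1 array, those without vehicle replicate 1 or GS-5759 replicate 4, and was otherwise up to 0.227.

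Of 22 NF-kB and STAT feedback genes, only NFKBIZ was called (median 0.08), against 0.192% of all genes called risen. The paired fit called 3, or 2 without replicate 3. NFKBIZ, a nuclear IκB protein that promotes IL6 transcription, rose by 0.79 ± 0.12, from 349, 434, 332 and 446 to 552, 806, 685 and 703 (adjusted p = 0.000138). TOB1, an antiproliferative protein, was the only one called of 15 BTG, TOB and CDK inhibitor genes (median 0.09). It went from 5269, 5278, 4533 and 4528 to 8284, 8009, 8124 and 7353, a rise of 0.70 ± 0.09 (adjusted p = 7.4e-06), with narrow spread in both groups.

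The other large rises were of genes with less settled roles in this pathway. ITPRIP, which binds the inositol trisphosphate receptor, rose by 1.30 ± 0.22, from 901, 671, 745 and 744 to 2575, 1655, 2016 and 1515 (adjusted p = 0.000573). AVPI1, named for its induction by vasopressin, rose by 0.92 ± 0.20, from 3869, 2644, 2847 and 3003 to 7418, 4779.8, 6901 and 4669 (adjusted p = 0.0259), a call lost without GS-5759 replicate 1 or 3 or vehicle replicate 2, 3 or 4 (up to 0.225). PRR5L, a partner of the mTORC2 kinase complex, rose on its dimmer probe set 233379_at by 1.12 ± 0.23, from 107, 134, 54.2 and 122 to 245, 270.5, 203 and 229 (adjusted p = 0.0153), a call lost without GS-5759 replicate 1 or 2 or vehicle replicate 3 (up to 0.191). The brightest PRR5L probe set differed by 0.12 ± 0.17 (adjusted p = 1.00). In each of the 3 the groups did not overlap. CSRNP1, a nuclear protein, rose by 0.91 ± 0.14 (adjusted p = 0.000168), and the dim GARIN3 by 1.25 ± 0.16, from 12.7, 19.1, 10.3 and 15.0 to 51.4, 35.9, 88.8 and 54.9 (adjusted p = 1.28e-05).

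The remaining risen genes were named after their values were seen, and most had smaller differences. SOX9, a progenitor transcription factor, rose by 1.02 ± 0.23 (adjusted p = 0.0373) from 83.8, 81.4, 113 and 53.0 to 189, 162, 298 and 112, the only risen gene whose groups overlapped, since GS-5759 replicate 4 lay below vehicle replicate 3. ZFP36L1, which destabilises mRNAs (0.81), CITED2, a cofactor of CBP and p300 (0.56), RPF1 (0.73) and NAV2-AS2 (0.77) were called in each fit without 1 array. FOSL2 (0.59), IRS2, an insulin receptor substrate (0.46), TENT5A (0.68), the T-box factor TBX3 (0.58), the cholesterol transporter NPC1 (0.62), KLF1 (0.44), the anchoring protein AKAP13 (0.50) and KALRN (0.56) were not, and neither was SOX9. Across these 9 the highest adjusted p without 1 array was 0.401, for SOX9, and the call held in 1 (KALRN) to 5 (FOSL2) of the 8 fits. Of the 45 risen genes 31 were called in all 8 such fits, among them the 18 largest rises, from NR4A2 to TGIF1.

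For 38 of the 45 risen genes the called probe set was the gene's brightest. For the other 7 the brightest was not called, and it differed by 0.95 ± 0.28 for SOX9, -0.24 ± 0.15 for GARIN3, 0.12 for PRR5L, -0.02 for RPF1, 0.08 for NPC1, 0.10 for KALRN and -0.06 for AKAP13. Over all other probe sets of the risen genes most lay on the same side. For 32 of the 45 genes the array held another probe set with only that gene's symbol, 77 in all, of which 62 lay above 0 and 25 were called risen. In 8 genes with several probe sets each was called. For 10 of the 45 the vehicle mean lay below the 40th percentile signal of 101, namely NR4A3, CCL20, GARIN3, SOX9, NAV2-AS2, RPF1, NPC1, KLF1, AKAP13 and KALRN.

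Falls were few, small and mostly dim, and only those of ZNF57 and LINC00485 were on the brightest probe set of the gene. ZNF57, a zinc finger protein, went from 759, 648, 630.0 and 719 to 474, 541, 466 and 512, a fall of 0.45 ± 0.09 (adjusted p = 0.00364), and was the only fallen gene called in all 8 fits without 1 array. COIL, the coilin of Cajal bodies, fell by 0.31 ± 0.07, from 959.6, 910.2, 903 and 801 to 709, 709, 752 and 697 (adjusted p = 0.0327; called in 2 of the 8). KIF23, a mitotic kinesin, fell by 0.65 ± 0.14 on its dimmer probe set 244427_at (adjusted p = 0.021; called in 3 of the 8), from 323, 324, 261 and 236 to 184, 204, 162 and 156, but differed by 0.02 ± 0.16 on its brightest, 204709_s_at. On the brightest probe sets of the others the differences were -0.18 ± 0.06 for COIL (adjusted p = 0.475), -0.10 for ZNF395, -0.03 for GIHCG, 0.03 for KCNJ9 and -0.08 for AP1G2, none of them called. The probe sets called for the other 5 had both group means below 101: ZNF395 (-0.81, called in 4 of the 8), GIHCG (-0.62, 3), LINC00485 (-0.56, 3), KCNJ9 (-0.43, 0) and AP1G2 (-0.38, 1). Without replicate 3 in any group 3 of the 8 fallen genes were called, and 6 in the paired fit. The fallen probe sets numbered 1 without GS-5759 replicate 1, 3 without vehicle replicate 2 or 3, 4 without vehicle replicate 1 or GS-5759 replicate 2 or 4, and 5 without GS-5759 replicate 3.

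Fitting the replicate number as a block widened the response. The paired fit called 253 probe sets risen (0.616%), for 180 genes, and 68 fallen (0.165%), for 65 genes, with 41 of the 180 at 2-fold or more and none of the 65. It called all 53 genes of the unpaired fit and added 135 risen and 57 fallen genes, and every called gene moved the same way in all 4 pairs. The genes were picked on these same pairs, which favours that agreement. The median difference was 0.67 for the 180 and -0.35 for the 65. For 85 of the 135 added rises and 27 of the 57 added falls the 2 groups overlapped, so the difference showed only within pairs. Without replicate 3, 72 of the 135 and 19 of the 57 were called. On the 8 arrays alone the paired fit called 100 risen and 6 fallen probe sets.

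Among added genes whose groups did not overlap was CD200, a surface glycoprotein that restrains myeloid cells. It read 1034, 912, 471 and 1079 with vehicle and 2131, 2088, 1173 and 2006 with GS-5759, a difference of 1.10 ± 0.30 (adjusted p = 0.223, 1.85e-08 paired, 9.21e-07 unpaired without replicate 3). Replicate 3 was the lowest array of both groups, so that its treated value only just exceeded the vehicle values of the other replicates. PLK2, a polo-like kinase, went from 2989, 1963, 3781 and 1704 to 6222, 5363, 7506 and 4408 (1.21 ± 0.32, 1.09e-09 paired), and C5AR1, the complement C5a receptor, from 58.1, 54.8, 76.9 and 35.9 to 189.6, 134, 176 and 84.2 (1.14 ± 0.31, 2.82e-05 paired). ADAMTS1, a matrix protease (0.81 ± 0.24, 3.31e-07 paired, 0.000228 unpaired without replicate 3), CHMP1B, of the ESCRT machinery (0.92 ± 0.26, 2.38e-05 paired), and RGCC, a cell cycle regulator (0.84 ± 0.22, 0.0244 paired), followed. B4GALT1, a galactosyltransferase, differed by 1.57 ± 0.36 on its probe set 238987_at (adjusted p = 0.0528, 2.58e-08 paired) but by -0.05 ± 0.09 on its brightest. SLC39A5, a zinc transporter, was near 0 on 3 vehicle arrays (0.0894, 0.00845, 11.8 and 0.0322, against 12.8, 34.5, 19.1 and 15.0) and was not called in the paired fit without replicate 3 (0.109).

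Added falls without overlap included mitotic genes, each read on a probe set dimmer than its brightest. TOP2A, the topoisomerase of dividing cells, differed by -0.77 ± 0.18 on 237469_at (0.0022 paired) but by -0.08 ± 0.09 on its brightest probe set. AURKB, a mitotic kinase, differed by -0.57 ± 0.17 on 239219_at (0.0143 paired, 0.153 without replicate 3) and by -0.11 ± 0.18 on its brightest. MIR181A2HG (-0.71), NKAIN2 (-0.53), CCDC198 (-0.53), ZNF540 (-0.52), ANPEP (-0.51), IDNK (-0.48), PCLO (-0.48) and ATF7IP (-0.41) completed the 10 largest, and none of these 8 was called in the paired fit without replicate 3 (adjusted p 0.0663 to 0.282). All but MIR181A2HG were read on a dimmer probe set. The brightest differed by -0.11 for NKAIN2, 0.005 for CCDC198, -0.14 for ZNF540 and -0.03 for ANPEP. It differed by -0.001 for IDNK, 0.41 for PCLO and -0.11 for ATF7IP, and none of these was called in either fit.

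The largest paired rises with overlapping groups, named after their values were seen, were of genes whose baseline differed between replicates. PDK4, the kinase that switches off pyruvate dehydrogenase, read 618, 80.4, 1322 and 41.0 with vehicle and 3143, 363, 4746 and 269 with GS-5759, a difference of 2.11 with an SE of 1.41 unpaired and 0.14 paired (adjusted p = 1.47e-12 paired). Replicates 1 and 3 lay far above replicates 2 and 4 in both groups, and each pair rose. HES1, a Notch-regulated repressor, showed the same order, at 305, 88.4, 2404 and 59.0 with vehicle and 1167, 252, 4549 and 177 with GS-5759 (1.38, 0.000279 paired), as did KLF4, an epithelial differentiation factor, at 731, 372, 2548 and 320.3 with vehicle and 2314, 1154, 4479 and 907 with GS-5759 (1.38, 1.94e-06 paired). FIBIN (1.96), SNAI2, a repressor of epithelial junction genes (1.57, 3.1e-06 paired), B3GALT4 (1.45), ARRDC3, an alpha-arrestin (1.44), BMP2, a growth factor (1.40), and the protease inhibitor SLPI (1.34) behaved likewise. Of these 9 only B3GALT4 was not called in the paired fit without replicate 3 (0.374). Dimmer probe sets of FIBIN (231001_at, -0.07), B3GALT4 (216065_at, 0.003), PDK4 (1562321_at, 1.08) and HES1 (203393_at, 0.02) were not called in either fit. Those of PDK4 (205960_at, 2.05), HES1 (203394_s_at, 1.34), KLF4 (220266_s_at, 0.94) and BMP2 (205290_s_at, 0.91) were called risen in the paired fit. TXNIP, an arrestin-like inhibitor of glucose uptake, went the other way, from 5637, 6125, 4527 and 8069 to 3169, 4396, 2751 and 5903 (-0.62, 0.00443 paired, 0.0575 without replicate 3), with every pair lower but the groups overlapping.

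**Figure D2:**
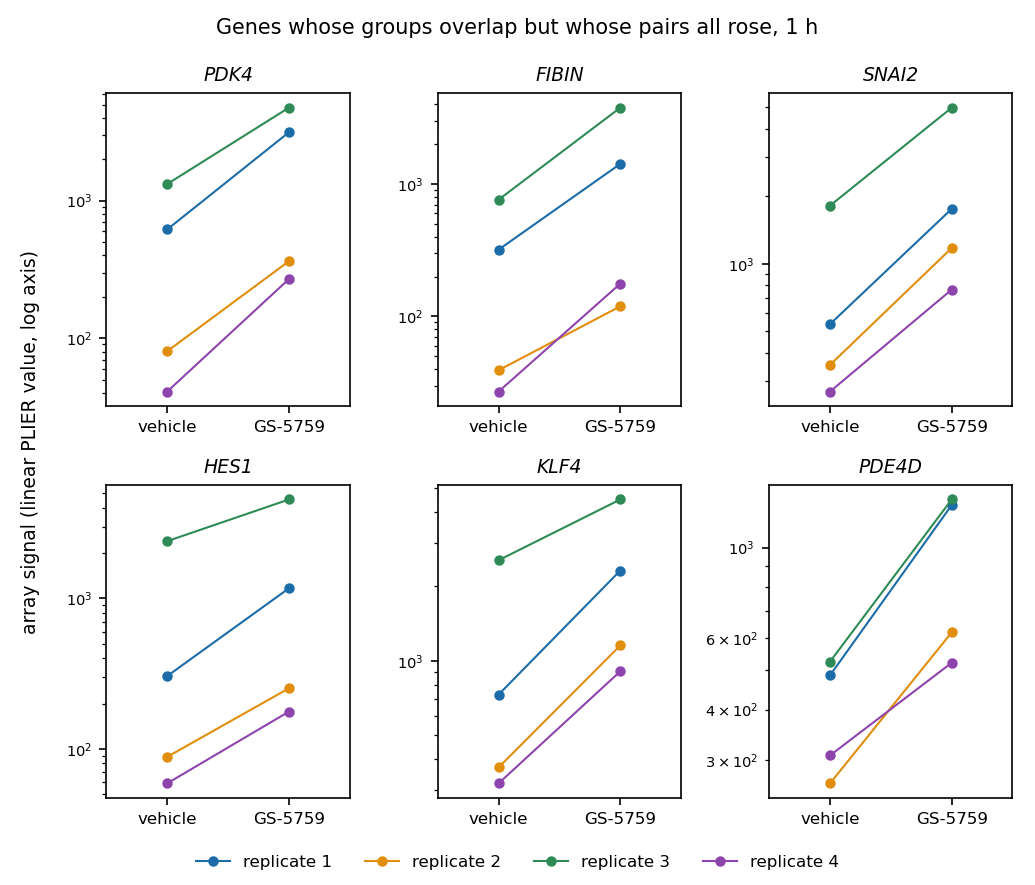
Array signals on a log axis for 6 genes called only in the paired fit, with 1 line for each replicate number. The groups overlap in each panel, replicates 1 and 3 lie above replicates 2 and 4 in all 6, and every line rises, for PDK4 from 41.0 to 269 in replicate 4 and from 1322 to 4746 in replicate 3.

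The machinery that makes and reads cAMP held no call by the brightest probe set of each gene. None of 27 measured genes for receptors, Gs, adenylyl cyclases, protein kinase A, its inhibitors and anchors and EPAC was called in this way, with or without the block, though 1 had a dimmer probe set called fallen with it, and their differences ran from -0.17 to 0.14 (median -0.02). GNAS, the Gs alpha subunit, differed by -0.05 ± 0.04 and PRKACA, a catalytic subunit of protein kinase A, by -0.08 ± 0.07. Of 14 CREB family factors, CRTC coactivators and SIK kinases only SIK1 was called (median -0.01), and CREM, whose inducible ICER form is a known cAMP target, read 407, 441, 415 and 445 with vehicle and 472, 460.2, 494 and 434 with GS-5759 (0.12 ± 0.11, adjusted p = 1.00, 0.845 paired).

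Of 12 measured cAMP phosphodiesterases, none was called unpaired and PDE4D and PDE4B were called with the block (median 0.04). PDE4D read 485, 264, 525 and 309 with vehicle and 1271, 619, 1312 and 521 with GS-5759 (1.14 ± 0.44, adjusted p = 0.703, 0.000157 paired), with replicates 1 and 3 high in both groups. Its dimmer probe sets 228962_at (1.03), 210836_x_at (0.97) and 210837_s_at (0.85) were also called paired. The PDE4D probe sets 211840_s_at (0.14) and 1554717_a_at (-0.007) were not. PDE4B read 363, 292, 359.7 and 319 with vehicle and 650.3, 504, 784 and 484 with GS-5759, without overlap (0.81 ± 0.24, 0.324 unpaired, 0.019 paired), and was called unpaired without replicate 3 (0.00227). Its dimmer probe sets 211302_s_at (0.67 ± 0.22, 0.0677 paired) and 215671_at (0.14 ± 0.13, 0.877 paired) were not called in either fit. PDE4A, at 769, 746, 658 and 683 with vehicle and 674, 634, 722 and 696 with GS-5759, did not differ beyond its spread (-0.06 ± 0.08, 0.88 paired), although its dim probe set 242435_at differed by 0.76 ± 0.23 (0.00778 paired). The other 9 phosphodiesterases, which include PDE3, PDE7 and PDE8 members, ran from -0.08 to 0.17.

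Lists of growth and stress genes held few calls or none. None of 24 measured G2/M genes was called by the brightest probe set, with a median of -0.08 and a range of -0.28 to 0.02, although counting dimmer probe sets 1 of them had a fall called, and 4 with the block. None of 24 G1/S genes (median -0.03) and none of 24 interferon-stimulated genes (median 0.03) was called by any probe set in either fit. Of 18 unfolded protein and heat shock genes only HERPUD1 was called, in the paired fit (0.33, median of the list -0.04). Of 16 circadian clock genes BHLHE40 was called, and NFIL3 with the block (median 0.04). No fibroblast (15), leukocyte (12), endothelial (10), or ciliated, club and goblet marker (15) was called, nor any of 11 reference genes (median -0.06), in either fit.

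**Figure D3:**
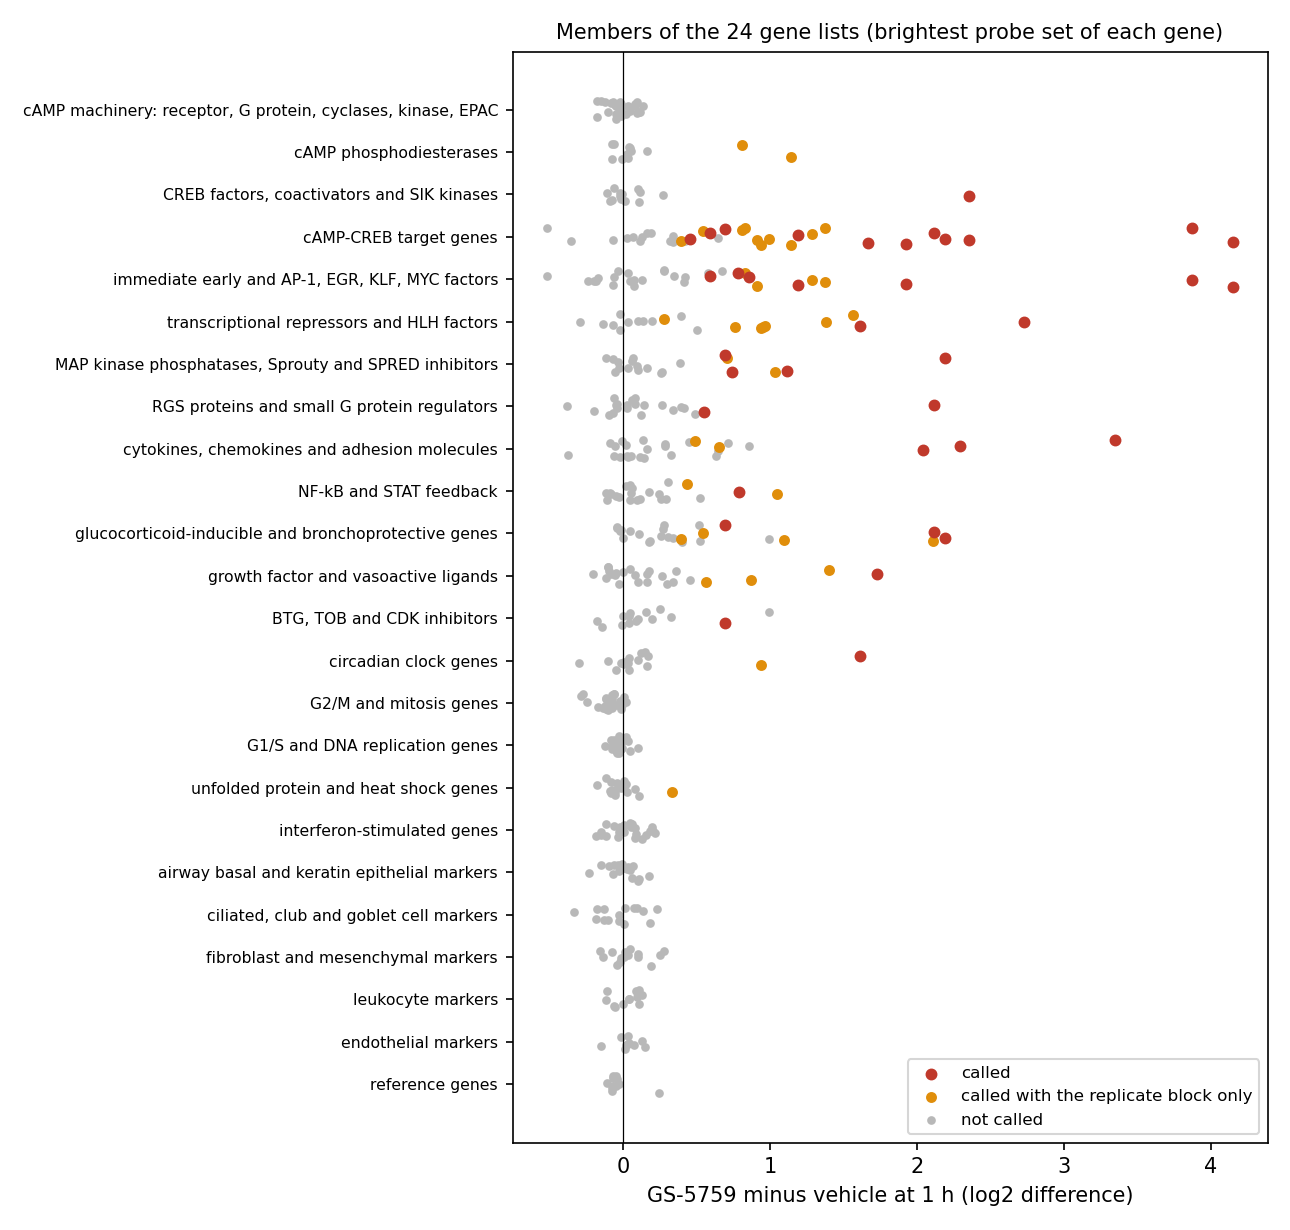
Log2 differences, GS-5759 minus vehicle at 1 h, for each measured member of the 24 gene lists by its brightest probe set, 1 point for each gene. Red points were called, orange ones called only in the paired fit. The calls lie to the right of 0 and are densest among cAMP-CREB targets (11 red of 35), while the cAMP machinery spans only -0.17 to 0.14.

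GS-5759 was next set against Ind/GSK at the same time and at the same nominal 10 nM of each agent, the only pair of treatments compared. No probe set was called (0%), with a smallest adjusted p of 0.146, or 0.108 in the paired fit. Unadjusted limma p-values under 0.05 numbered 2651 (6.45%), and 6769 (16.5%) paired. The median difference over all probe sets was 0.08. Signals at the 75th percentile were 525.9, 518.8, 578.2 and 566.1 with Ind/GSK, against 574.6, 594.8, 601.1 and 590.8 with GS-5759. The part of this offset in the counts was not tested. NR4A2 read 3745, 939, 10239 and 822 on the Ind/GSK arrays, and GS-5759 minus Ind/GSK was 0.07 (95% interval -1.40 to 1.54). IL6 read 1733, 1141, 3393 and 1077, for a difference of 0.10 (95% interval -0.88 to 1.07), and PRDM1 774, 613, 603 and 858, for 0.18 (95% interval -0.35 to 0.71). The intervals were narrowest for tight genes such as DUSP1, at 0.00 (95% interval -0.20 to 0.20), and TOB1, at 0.02 (95% interval -0.16 to 0.20).

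Over the 45 risen genes the difference between the treatments ran from -0.11 to 0.31 with a median of 0.10, close to the 0.08 of all probe sets. It lay above 0 for 44 of them, but the 45 were chosen with these same GS-5759 arrays. No interval left 0 out. The widest intervals, from -1.40 to 1.54 for NR4A2 (-0.74 to 0.88 paired), do not show that the treatments act alike on that gene. The smallest adjusted p was that of ANPEP on its dimmer probe set 234576_at, which read 123, 131, 139 and 126 with Ind/GSK and 78.3, 69.1, 83.2 and 82.2 with GS-5759. Its difference was -0.63 (95% interval -0.87 to -0.39), and the groups did not overlap.

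**Figure D4:**
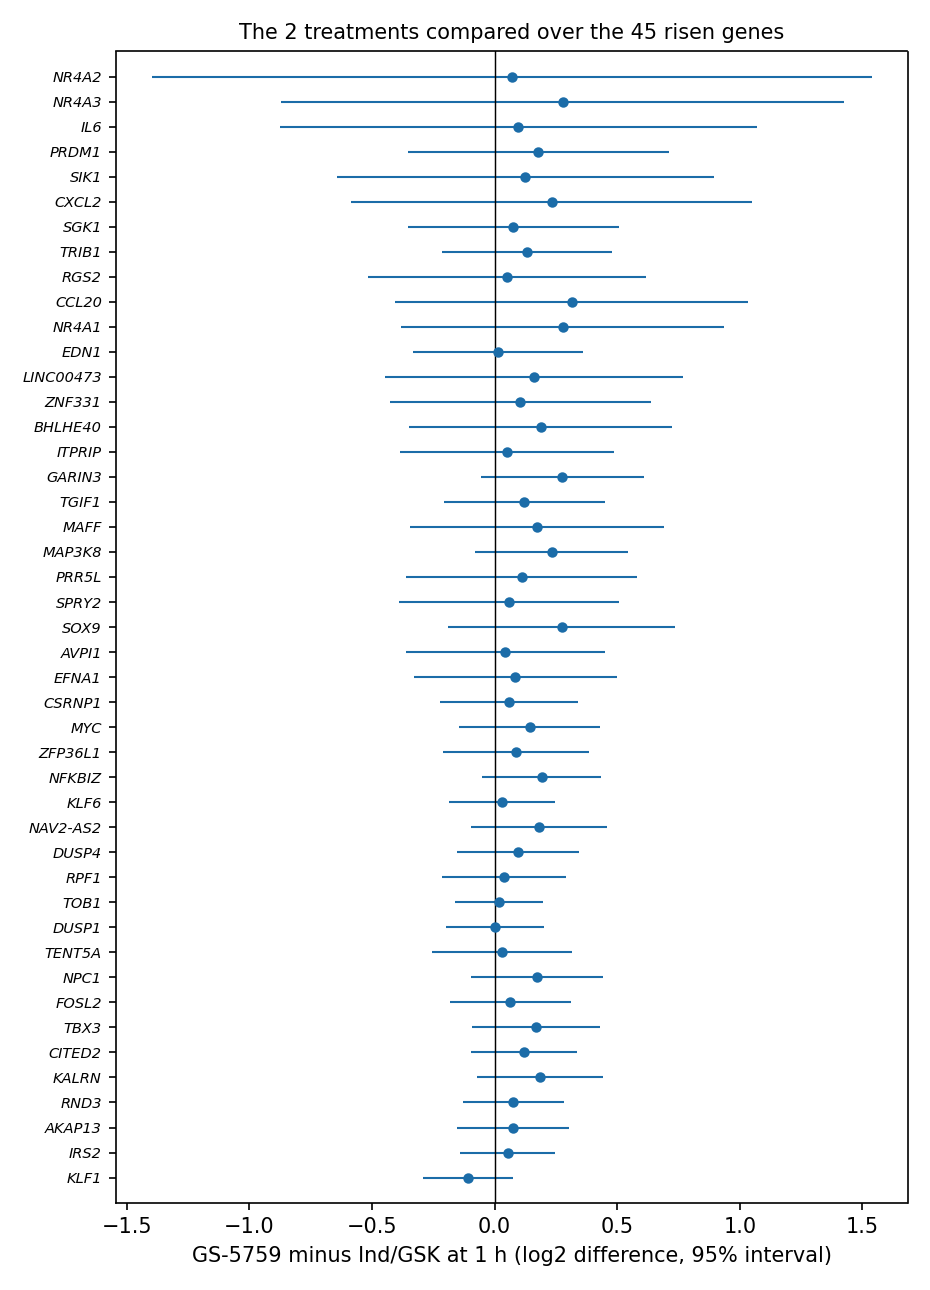
GS-5759 minus Ind/GSK at 1 h (log2 difference) for the 45 risen genes, with 95% intervals from the fit over all 48 arrays, ordered by the size of the rise over vehicle. Every interval spans 0, and the widest is that of NR4A2, from -1.40 to 1.54.

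The early rises were then followed on the later arrays, which share the estimate of spread behind the calls at 1 h but are in neither of the 2 groups compared there. At 2 h 38 of the 45 genes were risen over vehicle, against 1.11% of all probe sets, with a median of 1.13. At 6 h 4 were risen, against 0.613%, with a median of 0.37, and at 18 h none, against 0%, with a median of 0.05 and 32 of the 45 above 0. In limma's 18 h comparison 1744 probe sets had an unadjusted p under 0.05. Without replicate 3 the counts were 38, 6 and 0. The 4 genes still risen at 6 h were NR4A3, LINC00473, DUSP4 and DUSP1.

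NR4A2, at 4.15 after 1 h, differed from vehicle by 4.24 at 2 h, 1.55 at 6 h and 0.31 at 18 h. NR4A3 went from 3.87 at 1 h to 5.53 at 2 h, 2.47 at 6 h and 0.70 at 18 h, and IL6 from 3.35 to 2.86 at 2 h, 0.63 at 6 h and 0.23 at 18 h. LINC00473, at 1.67 after 1 h, reached 3.47 at 2 h, 2.16 at 6 h and 0.52 at 18 h. The highest of the 4 values was at 1 h for IL6 and at 2 h for the other 3 genes, though of these changes from 1 to 2 h only that of LINC00473 was called, and only with the block.

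The change of the GS-5759 response from 1 to 2 h was tested directly. It was called for 4 probe sets (0.00973%), all larger at 2 h, and for 214 (0.521%) with the replicate block; without replicate 3 the unpaired fit called 28. SLC7A2, a transporter of cationic amino acids, differed by 0.18 at 1 h and 1.54 ± 0.18 at 2 h, a change of 1.36 ± 0.25 (adjusted p = 0.0283). TBX3 on its dimmer probe set 219682_s_at (1.02 ± 0.17, adjusted p = 0.00993), BCAR3, an adaptor of the p130Cas scaffold (0.89 ± 0.15, adjusted p = 0.00833), and SIRPA, the receptor for CD47 (0.70 ± 0.11, adjusted p = 0.00833), were the others. The count was 2 without GS-5759 replicate 2 at 1 h or replicate 1 at 2 h, and 7 without vehicle replicate 4 at 2 h.

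By the brightest called probe set of each, which for TBX3 is 225544_at, none of the 45 early genes had a called change from 1 to 2 h in the unpaired fit, and 21 were larger and 24 smaller at 2 h. With the block LINC00473 (1.80), ITPRIP (0.82) and TBX3 (0.83) were larger at 2 h and RPF1 (-0.79) was smaller. Several genes not called at 1 h in the unpaired fit had paired changes: CRISPLD2 (2.45, reaching 2.97 ± 0.39 at 2 h), SIK2 (1.16, reaching 1.18 ± 0.20) and PDE4D (1.29). CRISPLD2 and SIK2 were thus not detectably raised at 1 h and were risen at 2 h (adjusted p = 2.51e-06 and 0.000278).

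**Figure D5:**
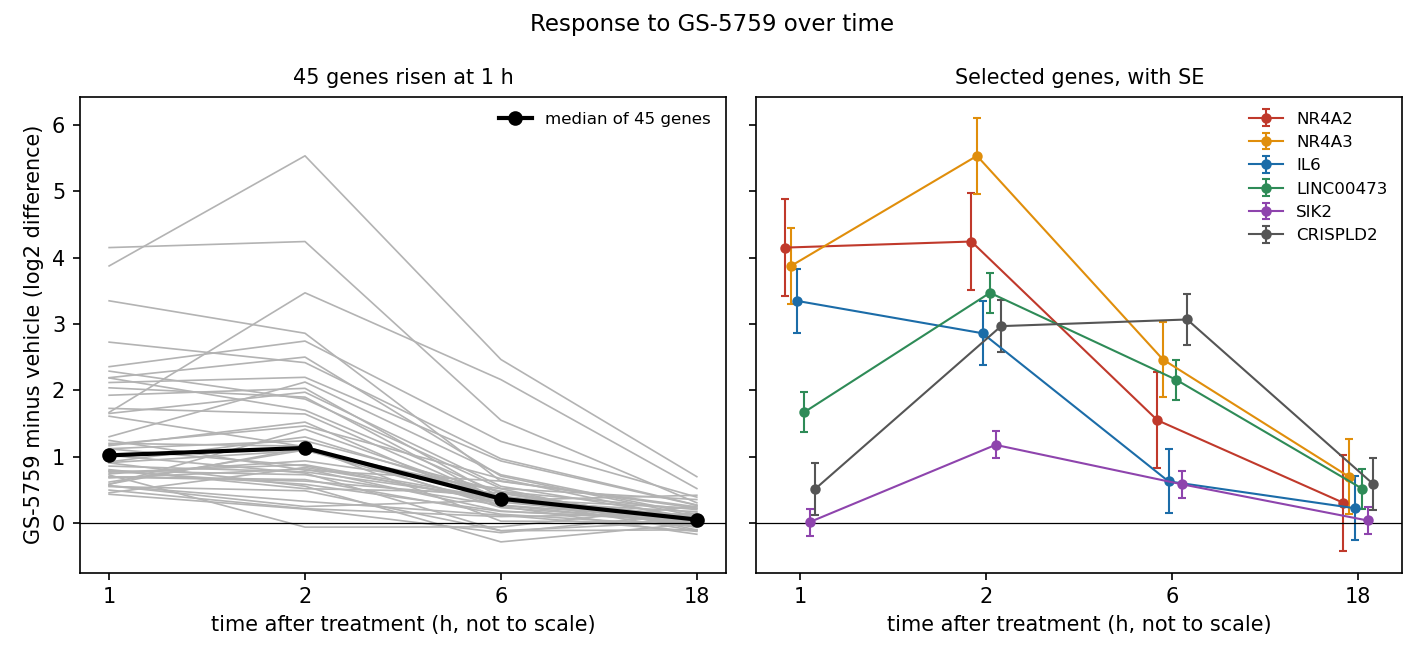
Log2 differences, GS-5759 minus vehicle at the same time, at 1, 2, 6 and 18 h (spaced evenly, not to scale). The left panel has a grey line for each of the 45 risen genes and their median in black (1.02, 1.13, 0.37 and 0.05); the right panel shows NR4A2, NR4A3, IL6, LINC00473, SIK2 and CRISPLD2 with SE bars, of which CRISPLD2 and SIK2 are near 0 at 1 h relative to 2 h.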

How the data were processed

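Per the labels, RNA was labelled by 3' in vitro transcription and read on 1 array for each sample. The authors deposited linear probe set intensities. Per the submitters' processing notes they used PLIER and the Affymetrix Expression Console, whose versions, like the normalization between arrays, are not given in the sources used here. The intensities were used as deposited, with no columns left unmapped (0). Detection calls were not used, so dim signals carry no bound.

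Of 54675 probe sets, 41091 carried exactly 1 gene symbol (for 19775 genes, by the array annotation, with 41037 symbols updated through their gene identifiers), 11721 none and 1801 several, and 62 were controls. Only those with 1 symbol were tested and named. Group means of log2(intensity + 16) were fitted by limma 3.58.1 (R 4.3.3; lmFit, then eBayes; 36 residual degrees of freedom) on the whole set of 48 arrays, so that the 12 groups share 1 estimate of spread, and p-values were adjusted by Benjamini-Hochberg over all probe sets of a contrast. The paired fit added the replicate number as a block (33 residual degrees of freedom). Pairing was taken from the titles' replicate numbers and checked: after group means were removed, same-numbered vehicle and GS-5759 arrays correlated at 0.289, 0.423, 0.826 and 0.594 over probe sets, all above the minimum of 0.1, and other pairs at -0.654 to 0.445. The number of arrays limits the precision.

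Genes were named by rule: the 25 largest rises and up to 10 largest falls among called genes whose groups did not overlap (7 met this), up to 4 called members of each of 24 gene lists, the 10 largest in each direction called only in the paired fit, the 5 largest changes in the other contrasts, and a fixed set of cAMP pathway genes. Genes outside the rule are said to be so or are given to account for a list. The members, lists and comparisons were chosen with earlier results of these data known. A list is described by each gene's brightest probe set. The tests were tried on simulated data first. Alternatives covered the value added before the log, centring, quantile normalization, a filter, an intensity trend, the arrays fitted, the block and each array left out. Leaving replicate 3 out of every group was added after the data were seen. Promoter windows came from RefSeq (GRCh38.p14) and were matched by gene identifier. Figures were drawn with Python 3.11.15 and matplotlib 3.10.9.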

Additional observations from a re-analysis of the deposited data

Results flagged for a closer look

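In some groups of 4 arrays 1 array lay far from the rest, measured as the gap to its nearest neighbour over the group's range (Dixon's test at its 95% critical value, which chance passes in about 1 of 20 groups). Of 200 groups tested 14 passed, 11 of them through replicate 3. These counts include KRT14, KRT5 and S100A2, which were added to the named genes and had already shown high replicate 3 signals. Every group of theirs passed through replicate 3, so the counts do not measure how often that replicate stood apart. Replicate 3 was highest in both groups for the keratins and S100A2: KRT14 at 0.956 with vehicle and 0.964 with GS-5759, KRT5, a basal cell keratin, at 0.95 and 0.936, and S100A2, a calcium-binding protein of basal cells, at 0.952 and 0.965. Replicate 3 was also highest for MAP3K8 with vehicle (0.875), SLC39A5 with vehicle (0.991), SPRY2 with GS-5759 (0.897) and MYC with GS-5759 (0.85), and lowest for CD200 with GS-5759 (0.898). Other replicates stood out for LINC00485 with GS-5759 (replicate 4 highest, 0.948), IDNK with GS-5759 (replicate 2 lowest, 0.851) and TBX3 on 225544_at with vehicle (replicate 2 highest, 0.905). The response of MAP3K8, SPRY2 and MYC was called with replicate 3 left out of every group.

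The response to GS-5759 differed between 2 h and 1 h for SLC7A2 (2 h minus 1 h, 1.36 on the log2 scale), TBX3 on 219682_s_at (1.02), BCAR3 (0.886) and SIRPA (0.697) by the test of the difference over all probe sets. In the paired fit it also differed for CRISPLD2 (2.45), LINC00473 (1.8), PDE4D (1.29), BMP2 (1.28), SIK2 (1.16), PDK4 (1.03), CD200 (1.02), TBX3 on 225544_at (0.831), ITPRIP (0.824) and AP1G2 (0.522), and downwards for TXNIP (-0.867) and RPF1 (-0.786). AP1G2 differed from vehicle by -0.38 at 1 h and 0.14 at 2 h, and TXNIP by -0.62 and -1.48.

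Probe sets outside the comparison also moved. In a fit that included them, 16 of the 11721 probe sets with no gene symbol rose with GS-5759 at 1 h, by up to 1.76, and 1 fell, while 2 of the 1801 with several symbols rose and 1 fell.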

How the results depend on the processing

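Of the 53 genes called at 1 h, 51 were called with 75th percentile centring and 51 with quantile normalization, and 32 in all 8 fits without 1 array. No called probe set changed direction in any alternative that included it. For 7 risen and 6 fallen genes the brightest probe set was another one. There GARIN3 (-0.24), RPF1 (-0.02), AKAP13 (-0.06), KIF23 (0.02) and KCNJ9 (0.03) lay on the other side of 0, and the rest kept their sign. The 70 risen probe sets became 40 with the brightest probe set of each gene, 24 with only the arrays compared, 253 with the replicate block and 53 to 77 with arrays left out, the 77 without replicate 3 in every group. The 8 fallen became 3, 0, 68 and 1 to 9 in the same fits, and 15 with quantile normalization. With only the arrays compared fewer arrays estimate the spread, and with the brightest probe set fewer are tested; for the others the cause was not tested. The paired counts of 253 and 68 became 100 and 6 on the 8 arrays alone, 157 to 231 and 21 to 54 without a replicate number (160 rises without replicate 1, 30 falls without replicate 3, and 31 falls without replicate 3 in every group), and the falls 118 with a block within each time. The 0 calls between GS-5759 and Ind/GSK became 1 with 75th percentile centring. The 4 changes from 1 to 2 h became 214 with the replicate block, 152 with it on only the arrays compared, and 2 to 28 with arrays left out (7 without vehicle replicate 4 at 2 h, 28 without replicate 3 in every group). Of the 8 falls 5 lay below the 40th percentile signal in both groups.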

Other observations

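Genes with zinc finger symbols were common among the falls. After the named falls had been seen, symbols beginning with ZNF, ZFP, ZBTB, ZSCAN, ZKSCAN, ZSWIM or ZBED were counted: 17 of the 65 genes fallen in the paired fit (26.2%) had one, against 620 of all 19775 genes (3.14%), and 3 of the 180 risen in that fit. The count was made on the same arrays that showed the pattern and carries no test. ZNF57, from 759, 648, 630.0 and 719 with vehicle to 474, 541, 466 and 512 with GS-5759, and ZNF395, from 35.6, 64.3, 65.9 and 34.8 to 19.8, 27.7, 12.6 and 25.2, were those called unpaired, the latter on a dim probe set while its brightest differed by -0.10, while ZNF331 and ZFP36L1 rose.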
